A study of Mus musculus with 16 samples.

Results

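The genes described here are those of cytochrome P450 families 1 to 3 together with Por, the gene of their common reductase, in mouse liver. They were chosen by name: every listed gene whose symbol begins with Cyp1, Cyp2 or Cyp3 followed by a letter, plus Por, with a value above 0 in at least 1 library. This gave 50 of the 14191 genes listed in either of the study's expression tables. Of the 50, 44 are in both tables, 1 (Cyp2c23) is in the 8-week table alone, and 5 (Cyp2b13, Cyp2g1, Cyp2j8, Cyp3a16 and Cyp3a41a) are in the cessation table alone.

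The livers came from 16 mice in 4 groups of 4, measured by bulk RNA sequencing. Wild-type (Mfap2+/+) and knockout (Mfap2-/-) mice were sampled after 8 weeks of intraperitoneal carbon tetrachloride (CCl4), or after 8 weeks of CCl4 and a further 4 weeks without it, so every mouse of every group had been given the toxin. Mfap2 encodes MAGP1, a protein of extracellular microfibrils. The labels name no sex, age, strain or promoter-driven Cre, and mice without CCl4 were not analysed here. Levels are FPKM, fragments per length of transcript and per total of the library, and each genotype comparison was made within the table of its own stage, because stage, table and library kit cannot be told apart.

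Cytochrome P450 enzymes of these families sit in the membrane of the endoplasmic reticulum, mostly in hepatocytes, where they oxidise drugs, toxins, steroids and fatty acids at a heme iron. Each catalytic cycle needs electrons from NADPH, which POR, the P450 oxidoreductase, passes on to all of these enzymes. CYP2E1 turns CCl4 into the trichloromethyl radical that starts the injury of hepatocytes around the central vein, the same cells in which CYP2E1 and CYP1A2 are normally most abundant.

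Several libraries stood apart from the rest. On the first principal component of the 8-week table, wild-type mice 1 and 2 lay at -45.7 and -49.4, while wild-type mouse 4, at 29.8, lay within the range of the knockout mice (-1.19 to 38.0). In the cessation table, wild-type mouse 1 and knockout mice 2 and 3 lay apart, with 38.1%, 32.4% and 37.5% of their FPKM in mitochondrial genes against 23.5% to 29.8% in the others. Mfap2 was between 0.902 and 3.07 FPKM in the wild type at 8 weeks and between 0.17 and 0.47 FPKM after cessation, and it is listed at 0 in all knockout libraries.

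The genes lie in clusters of close relatives, which bears on how their reads can be separated. On mm10, 12 Cyp2c genes are at chr19:39007019-40187333, 10 genes of Cyp2a, Cyp2b, Cyp2f, Cyp2g and Cyp2s at chr7:25802475-27133660, 7 Cyp2d genes at chr15:82370527-82794294 and 7 Cyp3a genes at chr5:145436309-146113287. Por (ENSMUSG00000005514, chr5:135670033-135735326) and Cyp2e1 (ENSMUSG00000025479, chr7:140763739-140774987) lie away from these clusters, and none of their 50-base words occur in another of the 50 genes. By contrast 98.6% of the 50-base words of Cyp3a41a, 72.1% of those of Cyp2c40, 54.8% of those of Cyp2c69, 43.3% of those of Cyp2c68, 36.1% of those of Cyp2a4 and of Cyp2d10 and 31.0% of those of Cyp2a5 are shared with relatives. Values of these genes are therefore uncertain as single-gene values.

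Promoters are printed for 4 genes: Por, whose values separated the genotypes at both stages, Cyp2e1, which activates CCl4, and Cyp2a4 and Cyp2a5, a pair of near copies that stood together after cessation. Each is the stretch of 250 bases before the RefSeq start on GRCm38.p6, plus strand, with matches to TATAAA (the TATA box) and GGGCGG (the GC box bound by SP1-type factors), on either strand, in capitals.
Por, chr5:135688895-135689144: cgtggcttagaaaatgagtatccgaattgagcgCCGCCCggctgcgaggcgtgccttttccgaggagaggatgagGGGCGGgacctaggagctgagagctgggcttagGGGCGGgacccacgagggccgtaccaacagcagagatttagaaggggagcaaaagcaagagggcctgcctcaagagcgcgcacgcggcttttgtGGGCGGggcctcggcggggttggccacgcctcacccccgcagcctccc
Cyp2e1, chr7:140763569-140763818: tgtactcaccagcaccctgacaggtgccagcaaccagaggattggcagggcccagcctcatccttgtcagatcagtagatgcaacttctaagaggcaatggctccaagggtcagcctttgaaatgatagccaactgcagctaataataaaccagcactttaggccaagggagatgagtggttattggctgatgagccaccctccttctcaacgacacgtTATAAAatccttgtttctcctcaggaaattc
Cyp2a4, chr7:26306942-26307191: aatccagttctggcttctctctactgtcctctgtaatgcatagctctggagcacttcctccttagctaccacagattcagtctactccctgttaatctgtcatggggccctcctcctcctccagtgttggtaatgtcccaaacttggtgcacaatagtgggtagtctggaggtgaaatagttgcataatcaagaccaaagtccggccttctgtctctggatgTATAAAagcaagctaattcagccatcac
Cyp2a5, chr7:26835089-26835338: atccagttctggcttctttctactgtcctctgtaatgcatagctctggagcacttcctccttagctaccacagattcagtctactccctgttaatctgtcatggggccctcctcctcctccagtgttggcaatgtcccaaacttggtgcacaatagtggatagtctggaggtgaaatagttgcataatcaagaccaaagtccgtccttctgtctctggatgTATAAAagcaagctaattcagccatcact

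The Por promoter holds 4 GC boxes and no TATAAA, with a GC content of 65.6%. The Cyp2e1 promoter holds a TATAAA whose first base lies 31 bases before the start and no GC box, with a GC content of 48.8%. The Cyp2a4 and Cyp2a5 promoters each hold 1 TATAAA and were identical at 245 of 249 aligned bases. In RefSeq, 44 of the 50 genes had a promoter entry, and 23 of these 44 (52.3%) held TATAAA, against 14.3% of 27025 genes. A gene with several starts was counted if any of its promoters held a match. GGGCGG was in 5 of the 44 (11.4%), namely Por, Cyp1b1, Cyp2j6, Cyp2s1 and Cyp3a11, against 35.4% of the 27025 genes. A match describes the letters of this window and is no evidence of a bound site.

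The first comparison set knockout against wild-type livers after 8 weeks of CCl4. Most P450 genes and Por were lower in the knockout: of the 38 genes that passed the filter on low values (a mean of at least 0.5 FPKM), 35 had a lower mean on the log2(FPKM + 1) scale, whereas 17.4% of all 11928 genes tested did. The median difference, knockout minus wild type, was -0.71 among the 38 and 0.23 among all genes tested. None of the 38 passed the adjusted limma threshold of 0.05 in either direction, and of all genes tested 0% were called lower and 0.00838% higher. At an unadjusted limma p under 0.05, 14 were lower and 0 higher, against 1.62% and 12.8% of all genes tested. In 4 of the 38 (Por, Cyp2e1, Cyp2c68 and Cyp2d22) every knockout value lay below every wild-type value, against 0.612% of all genes tested; the reverse held for 0 of the 38 and for 6.29% of all genes.

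Over all 45 listed genes, with no filter on low values, 40 had a lower mean and the median was -0.59. The count of 14 was 8 with each library scaled to its hepatocyte reference genes and 22 after median-ratio scaling, under which 37 of the 38 were lower, while the split of all genes at that p moved from 193 lower and 1529 higher to 600 lower and 669 higher.

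These counts rest on the libraries entered. Without wild-type mouse 4, 13 of the 38 passed the adjusted limma threshold, all lower, among 1465 genes called in all; they were Por, Cyp2e1, Cyp1a2, Cyp2a5, Cyp2a12, Cyp2f2, Cyp2j5 and 6 Cyp2c genes. Without wild-type mice 1 and 2 together, 0 passed and 5 were lower at an unadjusted limma p under 0.05. Without wild-type mouse 1 alone the median was -0.47.

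Means of cell type markers also differed between the genotypes, though no gene of these marker lists passed the adjusted limma threshold. The 15 hepatocyte reference genes (albumin, apolipoproteins and other plasma proteins) had a median of -0.39, 13 of 15 were lower, and their summed level was 58909 to 99300 FPKM in the wild type and 45783 to 70901 FPKM in the knockout. All 10 markers of stellate cells and myofibroblasts were higher, with summed levels of 105 to 126 FPKM in the wild type and 197 to 403 FPKM in the knockout, and 9 of 10 macrophage markers were higher (569 to 926 and 784 to 1625 FPKM), as were 8 of 8 endothelial markers (42.5 to 71.6 and 71.0 to 109 FPKM) and 5 of 5 cholangiocyte markers tested (114 to 291 and 189 to 484 FPKM). Of all genes tested, 82.6% had a higher mean in the knockout. Of the other markers of hepatocytes near the central vein (Glul, Oat and others), 3 of 7 were lower with a median of 0.03, and of those near the portal vein (Ass1, Cps1 and others) 10 of 10 were lower with a median of -0.55. No gene of these lists was at 0 in every library. When each library was scaled to its hepatocyte reference genes, 26 of 38 were lower and the median was -0.42. In bulk tissue, fewer cells of a type and less RNA per cell cannot be told apart, and the part of cell makeup in these differences was not tested further.

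Por was 346, 218, 257 and 339 FPKM in wild-type mice 1 to 4 at 8 weeks and 173, 182, 112 and 129 FPKM in knockout mice 1 to 4. The lowest wild-type mouse stood above the highest knockout mouse. The means were 290.3 ± 62.7 and 149 ± 33.8 FPKM (SD, n = 4), a ratio of 0.512 (2-sided exact permutation p = 0.0286, the smallest 4 against 4 can give, and 0.0381 adjusted over the 4 such tests of Por and Cyp2e1). That smallest value follows from the lack of overlap alone. Por and Cyp2e1 were chosen with earlier results of these data known, and adjustment over 4 tests does not cover that choice. In limma the difference was -0.96 ± 0.25 (SE) on the log2 scale with an adjusted p of 0.124, which did not pass. Without wild-type mouse 4 it was -0.88 with a limma adjusted p of 0.0184, and with libraries scaled to the hepatocyte reference genes it was -0.61 with a limma adjusted p of 0.314. Por relative to the summed P450 FPKM was 2.93 to 5.04 per 100 in the wild type and 3.42 to 3.99 per 100 in the knockout. On that ratio every knockout value lay inside the wild-type range.

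Cyp2e1 was 199.7, 181, 182 and 227 FPKM in the wild-type mice and 72.2, 78.3, 105 and 169 FPKM in the knockout mice. The genotypes did not overlap, and knockout mouse 4 came closest to the wild type. The means were 197 ± 21.6 and 106 ± 44.3 FPKM, a ratio of 0.538 (exact permutation p = 0.0286, adjusted 0.0381). The limma difference was -0.96 ± 0.26 with an adjusted p of 0.137. Without wild-type mouse 4 it was -0.90 with a limma adjusted p of 0.0226, and with libraries scaled to the hepatocyte reference genes -0.61 with a limma adjusted p of 0.314.

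**Figure D1:**
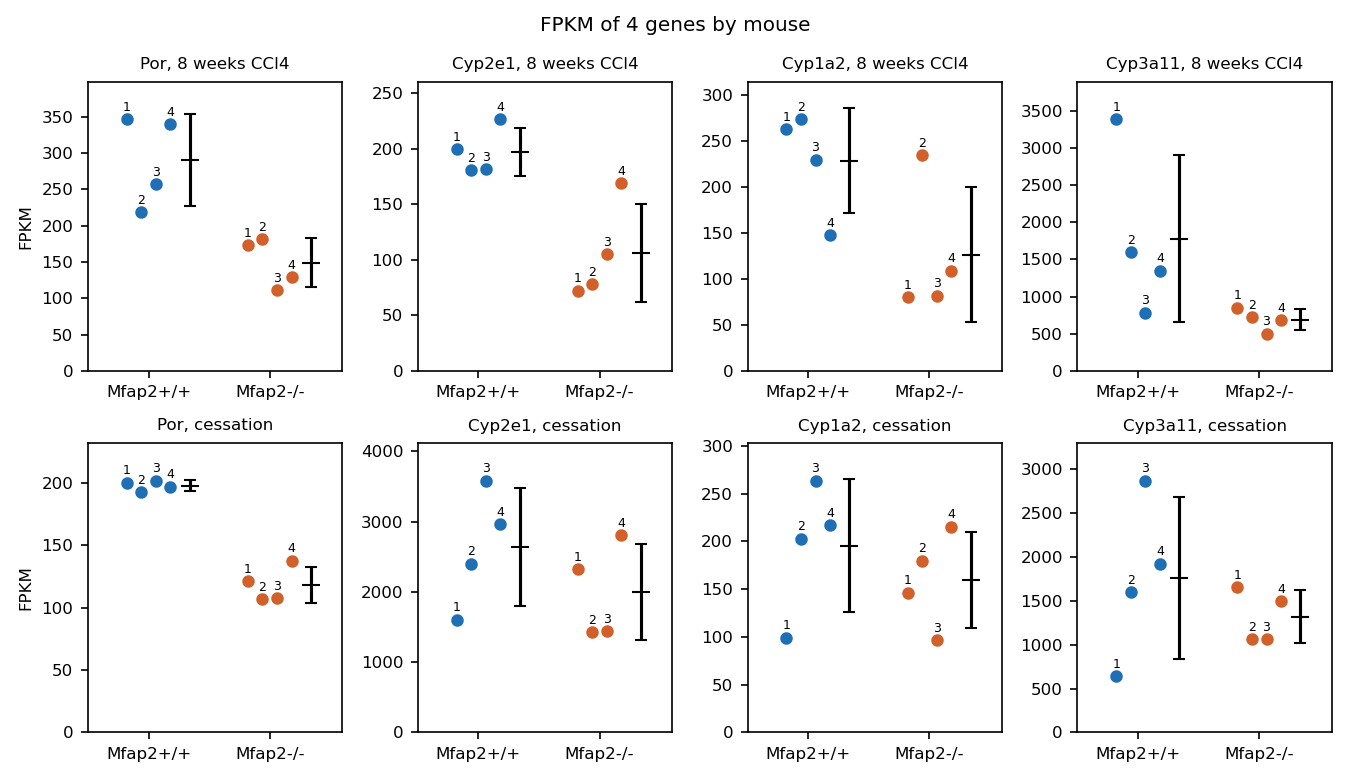
FPKM (y axis, from 0, a separate scale in each panel) of Por, Cyp2e1, Cyp1a2 and Cyp3a11 in each mouse, numbered as in the labels, with the mean and SD beside the points. The upper row is 8 weeks of CCl4 and the lower row after 4 weeks of cessation; the genotypes separate for Por in both rows and for Cyp2e1 in the upper row only.

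Among the other enzymes of hepatocytes around the central vein, Cyp1a2, which oxidises caffeine and aromatic amines, was 263, 274, 229.8 and 148 FPKM in the wild type and 80.1, 234, 82.0 and 109 FPKM in the knockout. Knockout mouse 2 lay among the wild-type values (limma difference -0.96 ± 0.33, adjusted p = 0.218). Its family mates Cyp1a1, inducible by aryl hydrocarbons, and Cyp1b1, expressed mainly outside hepatocytes, were low, with means of 0.80 and 2.45 FPKM over the 8 libraries. They were, with Cyp2b9, the 3 tested genes whose mean difference was not below 0 (0.01, 0.42 and 0.07 for Cyp1a1, Cyp1b1 and Cyp2b9), each with an SE at least as large as the difference.

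The Cyp2c genes, which oxidise drugs and turn arachidonic acid into epoxides, were lower as a group. All 10 tested had negative differences, from -1.71 to -0.52 with a median of -1.01, and 3 (Cyp2c38, Cyp2c39 and Cyp2c69) were below the filter. Cyp2c54 had the smallest unadjusted p of the 38. Its values were 92.7, 86.8, 49.8 and 99.0 FPKM in the wild type and 55.5, 39.2, 31.1 and 23.3 FPKM in the knockout, with wild-type mouse 3 inside the knockout range (-1.14 ± 0.28, limma adjusted p = 0.123).

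Cyp2c68 was 185, 147, 109.7 and 133 FPKM in the wild type and 92.8, 83.7, 56.9 and 77.3 FPKM in the knockout, without overlap (-0.88 ± 0.23, limma adjusted p = 0.135). Cyp2c50 was 208, 218, 106 and 206 FPKM against 132, 96.6, 69.1 and 56.8 FPKM (-1.07 ± 0.30, limma adjusted p = 0.147). Cyp2c40, a female-biased gene that was low at this stage, was 6.49, 6.43, 3.94 and 6.66 FPKM against 4.27, 1.97, 1.90 and 2.71 FPKM (-0.91 ± 0.24, limma adjusted p = 0.135). In Cyp2c50 and Cyp2c40 wild-type mouse 3 lay inside the knockout range. Cyp2c29, the most abundant of all the P450 genes at 8 weeks, varied widely between mice: 2445, 1392, 497 and 2241 FPKM in the wild type and 1585, 1088, 529 and 293 FPKM in the knockout (-0.96 ± 0.65, limma adjusted p = 0.492).

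The Cyp3a enzymes oxidise steroids, bile acids and many drugs. Of 6 listed, 5 were tested and all 5 had lower means in the knockout, from -1.42 to -0.34. Cyp3a11, the main enzyme of the group, was 3383, 1597, 783 and 1349 FPKM in the wild type and 851, 724, 503 and 680.3 FPKM in the knockout. Wild-type mouse 3 lay within the knockout range, and the highest value belonged to wild-type mouse 1 (-1.19 ± 0.37, limma adjusted p = 0.181).

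In the Cyp2a group, enzymes of coumarin, nicotine and testosterone oxidation, all 4 genes had lower means. Cyp2a5, which is induced in many kinds of liver injury in mice, was 240.4, 274, 270.1 and 89.9 FPKM in the wild type and 42.0, 125, 56.0 and 133 FPKM in the knockout (-1.33 ± 0.46, limma adjusted p = 0.231). Wild-type mouse 4 stood apart from the other wild-type mice, and without it the difference was -1.71 with a limma adjusted p of 0.0200. Without wild-type mice 1 and 2 together the difference was -0.97, with an unadjusted limma p of 0.166. Cyp2a12 was 441, 455, 350.2 and 266 FPKM against 284, 253, 155 and 174 FPKM (-0.81 ± 0.27, limma adjusted p = 0.191).

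Cyp2b10, the classical target of the receptor CAR, was 319, 145, 125 and 447 FPKM in the wild type and 194, 107, 68.0 and 48.8 FPKM in the knockout (-1.30 ± 0.51, limma adjusted p = 0.296). Cyp2f2, known from naphthalene activation and a gene of hepatocytes near the portal vein, was 416, 568, 382 and 129.9 FPKM against 183, 277, 163 and 126 FPKM (-0.87 ± 0.41, limma adjusted p = 0.356). The genotypes overlapped in both genes, with wild-type mouse 4 at the top for Cyp2b10 and at the bottom of the wild type for Cyp2f2.

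The Cyp2d genes differed less: all 6 tested had lower means, from -0.67 to -0.15 with a median of -0.35. Cyp2d22 was 53.2, 59.8, 52.9 and 46.4 FPKM in the wild type and 45.8, 45.4, 41.5 and 33.1 FPKM in the knockout, without overlap though the nearest values were close (-0.36 ± 0.20, limma adjusted p = 0.426). Cyp2d26 and Cyp2d10 were among the most abundant P450 genes, at means of 429 and 349.6 FPKM, with differences of -0.34 ± 0.26 and -0.50 ± 0.24 (limma adjusted p = 0.511 and 0.354). The 3 Cyp2j genes, Cyp2r1 (a vitamin D 25-hydroxylase) and Cyp2u1 (a fatty acid hydroxylase) had differences between -0.59 and -0.04. Cyp2ab1, Cyp2s1, Cyp2d12 and Cyp3a41b, with the 3 Cyp2c genes named earlier, make up the 7 listed genes below the filter, at means of 0.126 to 0.381 FPKM.

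The second comparison set knockout against wild-type livers after 4 weeks of cessation. Of 49 listed genes 44 were tested, and 35 of these had a lower mean in the knockout, against 29.3% of all 11032 genes tested. The median was -0.25 among the 44 and 0.10 among all genes tested. None passed the adjusted limma threshold in either direction, as for 0% of all genes tested. At an unadjusted limma p under 0.05, 3 (Por, Cyp2a4 and Cyp2a5) were lower and 0 higher, against 1.5% and 6.95% of all genes. After median-ratio scaling 8 were lower at that p, while the split of all genes moved from 166 lower and 767 higher to 367 lower and 424 higher. In 3 (Por, Cyp2a12 and Cyp2d10) every knockout value lay below every wild-type value, against 0.988% of all genes; the reverse held for 0 of the 44 and for 3.62% of all genes. Over all 49 listed genes, filter or not, 38 had a lower mean, with a median of -0.21.

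The median SD of log2(FPKM + 1) between mice was 0.502 in the wild type and 0.538 in the knockout among the 44 genes, against 0.255 and 0.252 among all genes tested. At 8 weeks it was 0.479 and 0.408 among the 38, against 0.328 and 0.263, so the P450 genes and Por had the larger median in all 4 groups. The sets were not matched for expression level, on which the SD of log2(FPKM + 1) depends. Knockout mouse 3 was lowest, with a median deviation of -0.66 from the mean of the 8 libraries, and without it 27 of 44 were lower and the median was -0.08. Without wild-type mouse 1 the median was -0.44 and 9 of the 44 were lower at an unadjusted limma p under 0.05. That count, 3 with all mice, was 5 without knockout mouse 2 or 4 and 1 without knockout mouse 1 or 3. The hepatocyte reference genes had a median of -0.04 here, with 110645 to 165400 FPKM in the knockout and 138468 to 171098 FPKM in the wild type. All 10 stellate cell and myofibroblast markers were higher, with summed levels of 50.6 to 125 FPKM against 18.4 to 42.8 FPKM in the wild type, and so were 9 of 11 rows of macrophage markers (Itgam has a pair of rows), with 649 to 967 FPKM against 361 to 514 FPKM. Of the endothelial markers 7 of 8 were higher, and of the cholangiocyte markers 3 of 5, where 70.7% of all genes tested were. Their part in the differences was not tested.

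Por was 200.45, 193, 202 and 197 FPKM in the wild-type mice and 121, 107, 108 and 138 FPKM in the knockout mice. The wild-type values lay within a narrow band, and all 4 knockout values lay well below it. The means were 198 ± 4.16 and 118 ± 14.4 FPKM, a ratio of 0.598 (exact permutation p = 0.0286, adjusted 0.0381). The limma difference was -0.74 ± 0.14 with an unadjusted p of 3.4e-04 and an adjusted p of 0.265, and it stayed between -0.89 and -0.61 under the 17 alternatives tried. Without wild-type mouse 1 and knockout mice 2 and 3, the libraries of high mitochondrial share, it was -0.61. Por relative to the summed P450 FPKM was 1.29 to 2.04 per 100 in the wild type and 1.08 to 1.66 per 100 in the knockout, so the genotypes overlapped on that ratio.

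Cyp2e1, now the most abundant of the 50 genes, was 1606, 2404, 3582 and 2967 FPKM in the wild type and 2327, 1428, 1441 and 2810.3 FPKM in the knockout. The genotypes overlapped widely, with wild-type mouse 1 below knockout mice 1 and 4. The ratio of the means was 0.758 (exact permutation p = 0.229), and the limma difference was -0.40 ± 0.30 with a 95% interval of -1.08 to 0.27 and an adjusted p of 0.752. Cyp1a2 was 99.3, 203, 263 and 217 FPKM against 146, 179.7, 96.6 and 215 FPKM, again with overlap (-0.27 ± 0.33, limma adjusted p = 0.873).

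Cyp2a4, which hydroxylates testosterone and is female-biased, was 774, 794, 591 and 1133 FPKM in the wild type and 329, 735, 269 and 553 FPKM in the knockout. Only knockout mouse 2 reached the wild-type range (-0.88 ± 0.32, limma adjusted p = 0.548). Its near copy Cyp2a5 was 3159, 1169, 1350.15 and 989 FPKM against 561, 1109, 869.6 and 974 FPKM (-0.81 ± 0.36, limma adjusted p = 0.586). Wild-type mouse 1 stood far above the others for Cyp2a5, and without it the difference was -0.44 with a limma adjusted p of 0.488, and its unadjusted limma p no longer lay under 0.05. For this pair, with the promoters printed above, reads may have been split between the copies.

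Cyp2a12, a steroid hydroxylase, was 578, 578, 527 and 551 FPKM in the wild type and 475, 525, 382 and 491 FPKM in the knockout. Cyp2d10 was 391, 436, 387 and 408 FPKM against 326, 368, 267 and 386 FPKM. In both genes the lowest wild-type and the highest knockout value were close (527 and 525 FPKM, and 387 and 386 FPKM), and the limma differences were small (-0.26 ± 0.15 and -0.28 ± 0.16, adjusted p = 0.668 and 0.663).

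The remaining abundant genes overlapped between the genotypes. Cyp3a11 was 638, 1600.1, 2870.1 and 1925 FPKM against 1660.2, 1062, 1065 and 1494 FPKM (-0.25 ± 0.40, limma adjusted p = 0.909). Cyp2c29 ranged from 67.9 FPKM in wild-type mouse 1 to 1389 FPKM in wild-type mouse 3, and from 147 to 583 FPKM in the knockout. Of 12 Cyp2c genes, 10 had lower means, from -0.86 to 0.07 with a median of -0.21, and the Cyp2d genes ranged from -0.28 to 0.27. Cyp3a41a, whose reads cannot be separated from those of Cyp3a41b, was 156, 307, 37.4 and 143 FPKM in the wild type and 20.1, 1061, 104 and 57.1 FPKM in the knockout, so that 1 knockout mouse sets its group mean. The 9 tested genes with a mean difference above 0 were led by Cyp2d12 (0.27 ± 0.32), Cyp2d9 (0.27 ± 0.50), Cyp1b1 (0.26 ± 0.25) and Cyp2u1 (0.21 ± 0.18). The 5 below the filter were Cyp1a1, Cyp2s1, Cyp2j8, Cyp2ab1 and Cyp2d11, at means of 0.143 to 0.329 FPKM.

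**Figure D2:**
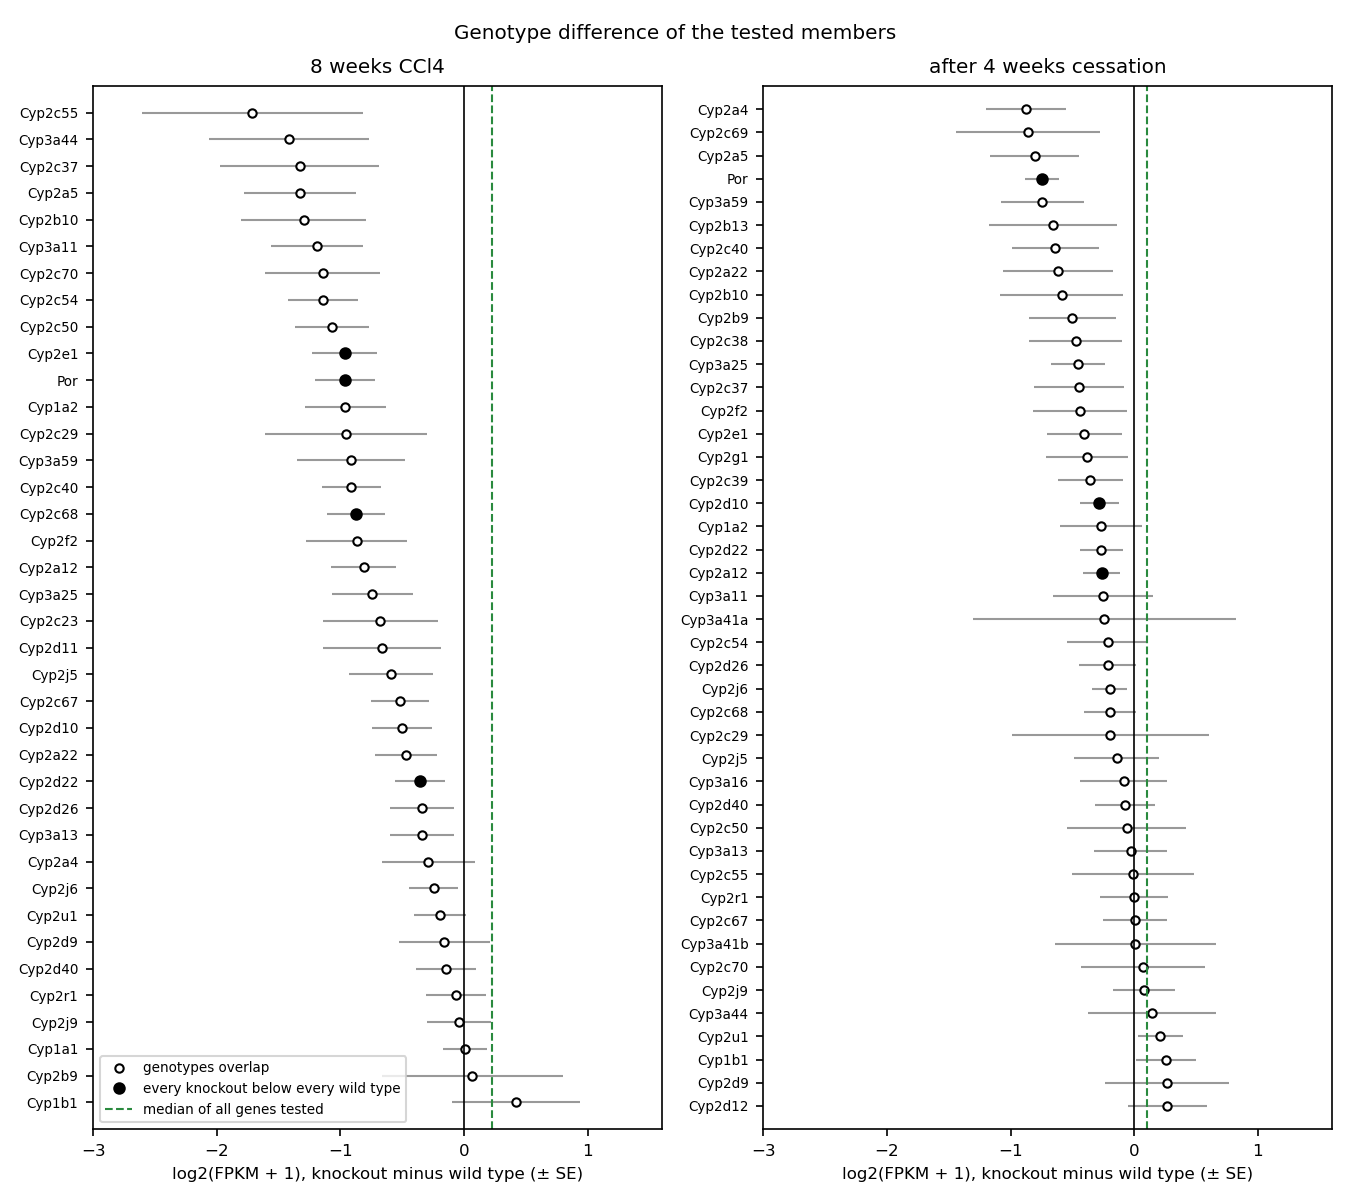
Difference in mean log2(FPKM + 1), knockout minus wild type, with its SE for each tested gene, at 8 weeks of CCl4 (left, 38 genes) and after 4 weeks of cessation (right, 44 genes). Filled points mark genes in which every knockout value lay below every wild-type value, and the dashed line is the median of all genes tested (0.23 and 0.10); 35 genes in each panel lie below 0.

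**Figure D3:**
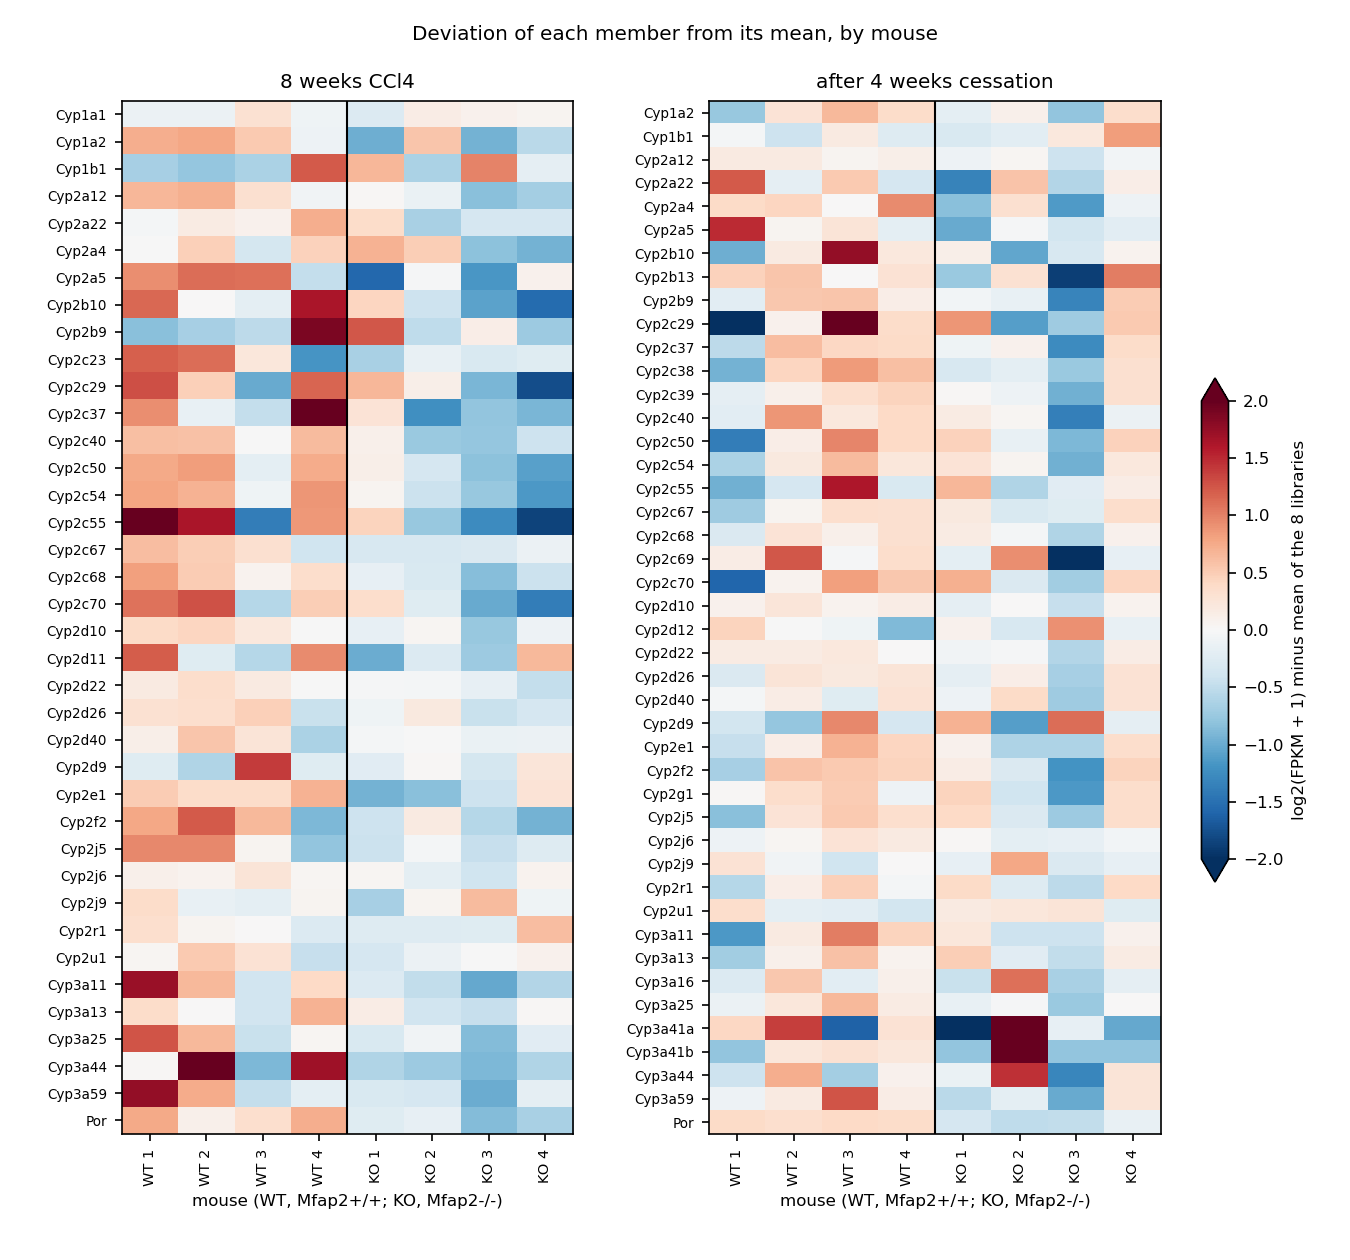
Colour shows log2(FPKM + 1) of each tested gene in each mouse relative to its own average in that table, with the colours ending at -2 and 2. At 8 weeks the knockout columns are mostly blue, and wild-type mouse 4 differs from the other wild-type mice in several genes; after cessation wild-type mouse 1 and knockout mouse 3 hold many of the low values.

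Grouped by function, the 10 genes inducible by foreign compounds (Cyp1a1, Cyp1a2, Cyp1b1, Cyp2a5, Cyp2b10, Cyp2c29, Cyp2c55, Cyp3a11, Cyp3a13 and Cyp3a25) were lower for 8 of 10 tested at 8 weeks, with a median of -0.96, and for 8 of 9 after cessation, with a median of -0.25. The fatty acid epoxygenases of the Cyp2c and Cyp2j groups and Cyp2u1, which make lipid mediators, were lower for 8 of 8 at 8 weeks (median -0.77) and for 8 of 10 after cessation (median -0.20). Both groups share Cyp2c29, and none of their genes passed the adjusted threshold. Of all genes tested, 17.4% were lower at 8 weeks and 29.3% after cessation.

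Whether the genotype difference itself differed between the stages was asked with an interaction term over all 16 libraries, for the 35 genes tested in both tables. None passed the adjusted threshold, as for 0% of the 10647 genes tested. The term was positive, meaning less negative after cessation, for 31 of the 35, with a median of 0.42, against a median of -0.12 among all genes tested. With each library scaled to its hepatocyte reference genes it was positive for 21 of the 35, with a median of 0.12 (all genes -0.37). Without wild-type mice 1 and 2 at 8 weeks the median was 0.23, and without wild-type mouse 1 of the cessation stage 0.22. At an unadjusted limma p under 0.05 it was positive for 1 (Cyp2c68, 0.68 ± 0.32, adjusted p = 1.00) and negative for 0, against 0.761% and 2% of all genes, a split of 81 positive and 213 negative that became 193 and 130 after median-ratio scaling. For Por it was 0.22 ± 0.29 and for Cyp2e1 0.56 ± 0.42 (adjusted p = 1.00 for both). Cyp2a4 (-0.59 ± 0.52), Cyp2b9, Cyp1b1 and Cyp2a22 were the 4 genes with a negative term. A difference between stages is thus not shown for any of these genes. Stage also cannot be told apart from table, library kit or sex in this term.

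The makeup of the P450 transcripts in a library can be described within each stage. At 8 weeks, Cyp3a11 held 15.3% to 32.4% of the summed FPKM of families 1 to 3, Cyp2c29 9.07% to 32.6% and Cyp2e1 1.43% to 5.23%. After cessation Cyp2e1 held 14.5% to 24.6%, Cyp3a11 6.48% to 18.3%, Cyp2a5 5.59% to 32.1% and Cyp2c29 0.690% to 8.88%. The shares of Cyp2e1 did not overlap between the stages, but stage cannot be told apart from table, library kit or sex. The genes summed also differ, as Cyp2b13 and Cyp3a41a have rows after cessation only. Within the 8-week stage, the summed level was 5107 to 10433 FPKM in the wild type and 2882 to 5043 FPKM in the knockout, without overlap, and after cessation it was 9845 to 15643 FPKM and 6488 to 11418 FPKM, with overlap.

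**Figure D4:**
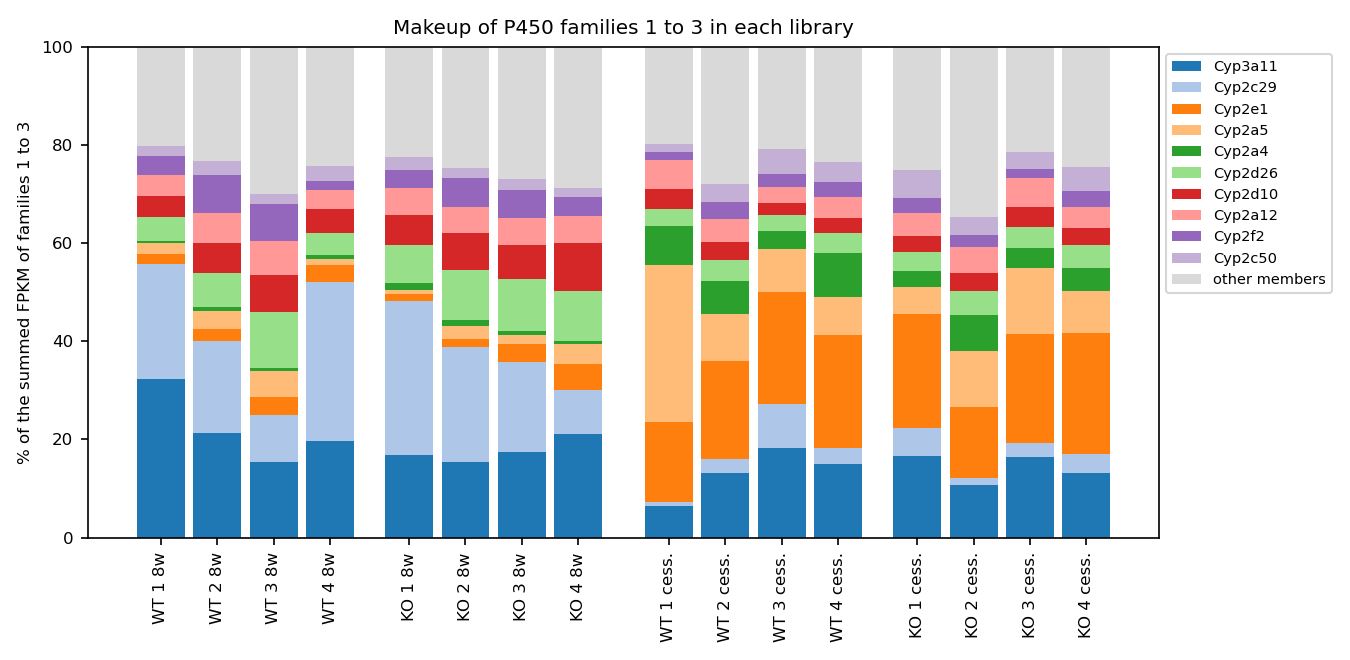
Share of the summed FPKM of P450 families 1 to 3 (y axis, %) held by 10 named genes and by all others in each library, without Por. Cyp2e1 (dark orange) takes 1.43% to 5.23% at 8 weeks and 14.5% to 24.6% after cessation, while Cyp2c29 (light blue) takes a larger share at 8 weeks in every library. Stage cannot be told apart from table, library kit or sex in these shares.

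Genes known as sex-biased in mouse liver stood at different levels in the tables of the stages, which were not tested against each other. The 9 female-biased genes of the list (Cyp2a4, Cyp2b9, Cyp2b13, Cyp2c40, Cyp2c69, Cyp3a16, Cyp3a41a, Cyp3a41b and Cyp3a44), of which 6 have a row at 8 weeks, held 0.482% to 1.5% of the summed P450 FPKM at 8 weeks and 7.27% to 23.7% after cessation. Cyp2b9, for example, was between 0.277 and 7.39 FPKM in the 8 libraries at 8 weeks and between 34.6 and 129 FPKM after cessation. Not all of the list followed: Cyp3a44 was 0 to 6.56 FPKM at 8 weeks and 0.28 to 7.65 FPKM after cessation. Cyp3a41b was 0 to 1.97 FPKM and 0 to 7.84 FPKM, but 93.5% of its 50-base words occur in Cyp3a41a. That copy has no row at 8 weeks and was 20.1 to 1061 FPKM after cessation, so Cyp3a41b cannot be read alone. Cyp2d9, a male-biased testosterone hydroxylase, went the other way, with 128 to 517 FPKM at 8 weeks and 8.28 to 42.5 FPKM after cessation. The Y-linked genes Ddx3y, Eif2s3y, Kdm5d and Uty were above 0 in all 8 libraries at 8 weeks, whereas the cessation table lists 0 genes of the Y chromosome. Xist has a row in neither table. The labels name no sex, so sex, stage, table and library kit cannot be told apart in these values.

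**Figure D5:**
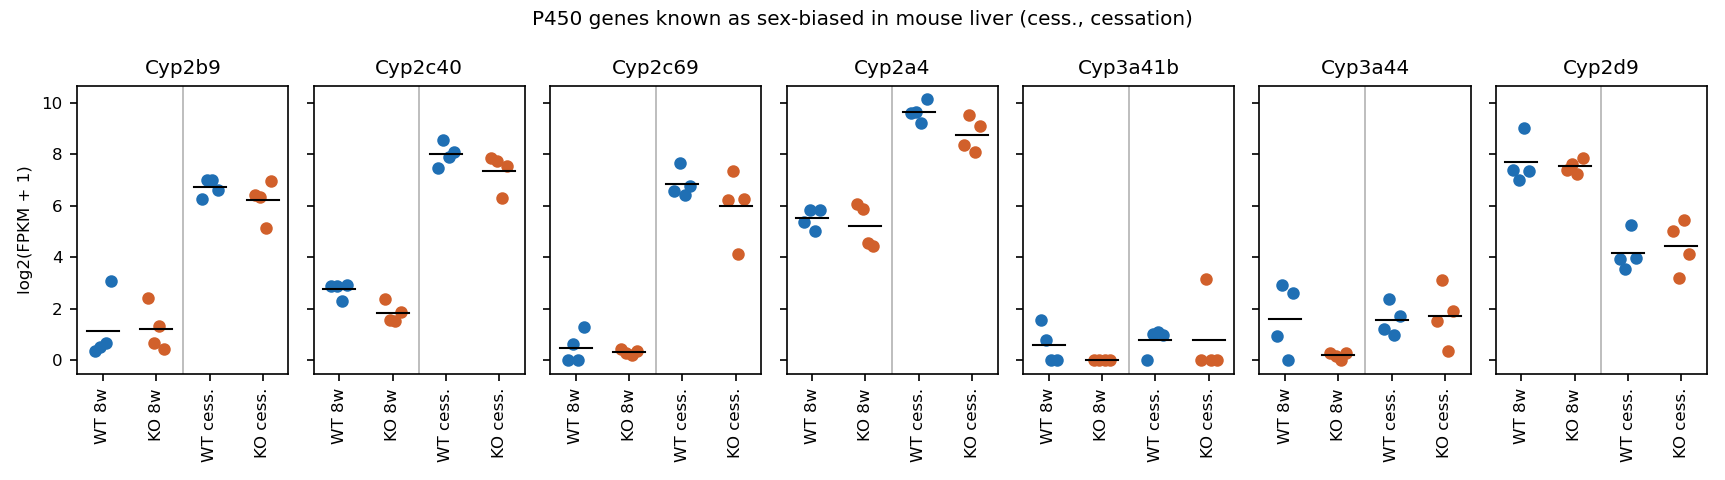
log2(FPKM + 1) of the 6 female-biased genes with a row in both tables (Cyp2b9, Cyp2c40, Cyp2c69, Cyp2a4, Cyp3a41b and Cyp3a44) and of the male-biased Cyp2d9 in each mouse, with the group mean as a line; WT is Mfap2+/+, KO is Mfap2-/-, and cess. is after 4 weeks of cessation. Cyp2b9, Cyp2c40, Cyp2c69 and Cyp2a4 are higher and Cyp2d9 lower in all 8 libraries after cessation than in any library at 8 weeks. Cyp3a41b and Cyp3a44 overlap between the stages, but reads of Cyp3a41b cannot be separated from those of Cyp3a41a, which is not shown.

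The genes that regulate and supply the P450 enzymes were counted from lists of 25 regulators, 12 electron partners and 18 genes of heme metabolism. No gene of these lists passed the adjusted threshold at either stage. Of 24 regulators tested at 8 weeks, 9 were lower and 15 higher in the knockout, with a median of 0.16. The cessation counts were 11 lower and 13 higher, with a median of 0.04. Of all genes tested, 82.6% were higher at 8 weeks (median 0.23) and 70.7% after cessation (median 0.10). After cessation Nr1i2, which encodes the xenobiotic receptor PXR, was 67.3, 49.7, 42.6 and 47.8 FPKM in the wild type and 30.4, 33.5, 26.6 and 39.7 FPKM in the knockout. The genotypes did not overlap (-0.65 ± 0.19, limma adjusted p = 0.499). Of the 24 regulators after cessation, 1 lay wholly below the wild type and 1 wholly above, against 0.988% and 3.62% of all genes tested. At 8 weeks 0 lay wholly below and 2 wholly above, against 0.612% and 6.29% of all genes tested. Nr1i3, which encodes the receptor CAR, was 154, 143, 114 and 149 FPKM against 68.1, 108, 60.6 and 119.6 FPKM, with knockout mouse 4 inside the wild-type range (-0.70 ± 0.23, limma adjusted p = 0.548). At 8 weeks these receptors had differences of -0.48 ± 0.22 and -0.60 ± 0.30 (limma adjusted p = 0.334 and 0.380), and the smallest p among the regulators was that of Nr2f2, an orphan nuclear receptor, which was 3.94 ± 0.457 FPKM in the wild type and 6.60 ± 1.75 FPKM in the knockout (limma adjusted p = 0.231).

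Among the electron partners, 4 of 11 were lower at 8 weeks and 6 of 11 after cessation, against 17.4% and 29.3% of all genes tested. Cyb5a, which encodes the cytochrome b5 that can pass the second electron, was 535, 621, 467 and 453 FPKM in the wild type and 329.7, 392, 325 and 342 FPKM in the knockout at 8 weeks, without overlap (-0.57 ± 0.22, limma adjusted p = 0.259). After cessation its difference was -0.04 ± 0.24. In heme metabolism, 10 of 18 genes were lower at 8 weeks and 7 of 16 after cessation. Alas1, the rate-limiting enzyme of heme synthesis in liver, was 293, 145, 233 and 198 FPKM against 97.6, 175, 97.1 and 143 FPKM at 8 weeks (-0.76 ± 0.27, limma adjusted p = 0.228), and its difference after cessation was 0.06 ± 0.32. Hmox1, the inducible heme-degrading oxygenase, was 22.4, 22.7, 22.5 and 19.2 FPKM in the wild type and 53.0, 32.7, 71.4 and 28.7 FPKM in the knockout after cessation, without overlap (0.97 ± 0.27, limma adjusted p = 0.499).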

How the data were processed

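RNA from 16 frozen livers was sequenced in bulk. The authors made FPKM values from their alignments and deposited 1 table per stage, with HISAT, Cufflinks and mm10 named in the submitters' processing notes and no versions, annotation or strand setting in the sources used here. The headers name no unit, and for the cessation table TPM over a filtered gene set cannot be told apart from FPKM. The labels' protocols name a NEBNext Ultra kit at 8 weeks, and for cessation either that or a VAHTS Universal kit. With no counts, read depth is unknown and no counting interval is given. Library totals were 428142 to 478062 FPKM at 8 weeks and 878889 to 959698 FPKM after cessation; 13 mitochondrial genes are listed after cessation and 0 at 8 weeks. FPKM are shares of a total, so abundant transcripts shift all other genes.

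A gene was tested if its values averaged 0.5 FPKM or more within a table. Differences are knockout minus wild type on log2(FPKM + 1), which understates the change of low genes, from limma 3.58.1 in R 4.3.3 (2-sided, empirical Bayes with a trended and robust prior). Adjustment was by Benjamini-Hochberg over all genes tested, at a threshold of 0.05; the steps were tested on simulated data. Por and Cyp2e1 were also compared by exact permutation of FPKM over 70 assignments. The labels number separate mice, and p-values measure only the spread between these samples. The labels do not say that mouse numbers pair the genotypes, so no pairing was used. Correlations of same-numbered libraries ran from -0.44 to 0.37 at 8 weeks and from -0.66 to 0.37 after cessation. These cannot show whether same-numbered mice were related or handled together.

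The genes and lists were chosen with earlier results of these data known. Named are Por, Cyp2e1, the 12 genes of highest mean FPKM in each table, the 5 per direction with the smallest p in each comparison and up to 3 per pathway list; values are given for those the account turns on, and the rest are given by subfamily. Positions are from GENCODE on mm10, which holds all 50 identifiers, and promoters from RefSeq on GRCm38.p6. Alternatives changed the pseudocount, filter, scaling, prior and libraries.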

Additional observations from a re-analysis of the deposited data

Results flagged for a closer look

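Each of the 50 genes was examined in each group of 4 mice in which its values were not all equal, which gave 187 sets. In 19 of them 1 mouse was set apart from the other 3 by a gap that took up more of the group's range than Dixon's 95% critical value. For normally distributed values chance alone gives such a gap in about 5% of groups. FPKM need not be so distributed, so that share is only a rough guide here. At 8 weeks these were 6 of 45 sets in the wild type and 2 of 44 in the knockout, and after cessation 7 of 49 and 4 of 49. Genes of 1 mouse are not independent of each other.

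At 8 weeks wild-type mouse 3 stood alone with 1.22 FPKM of Cyp1a1 (others 0.641 to 0.690), 517 FPKM of Cyp2d9 (others 128 to 165), 3.94 FPKM of Cyp2c40 (others 6.43 to 6.66) and 106 FPKM of Cyp2c50 (others 206 to 218). Wild-type mouse 4 stood alone with 5.91 FPKM of Cyp1b1 (others 0.730 to 0.920) and 7.39 FPKM of Cyp2b9 (others 0.277 to 0.581). Knockout mouse 4 stood alone with 10.1 FPKM of Cyp2r1 (others 5.04 to 5.10), and knockout mouse 3 with 0.315 FPKM of Cyp2ab1 (others 0.0787 to 0.113).

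After cessation, wild-type mouse 1 stood alone with 3159 FPKM of Cyp2a5 (others 989 to 1350.15), 355 FPKM of Cyp2d26 (others 498 to 521) and 176 FPKM of Cyp2f2 (others 380.1 to 415), and its Cyp3a41b is listed at 0 (others 1.01 to 1.13). Wild-type mouse 3 stood alone with 37.8 FPKM of Cyp2d9 (others 10.6 to 14.9), 7.41 FPKM of Cyp2c55 (others 0.41 to 1.24) and 19.6 FPKM of Cyp3a59 (others 6.99 to 8.73). Knockout mouse 2 stood alone with 12.6 FPKM of Cyp2j9 (others 5.48 to 6.11), 2.49 FPKM of Cyp3a16 (others 0.04 to 0.44), 1061 FPKM of Cyp3a41a (others 20.1 to 104) and 7.84 FPKM of Cyp3a41b (others listed at 0).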

How the results depend on the processing

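Read depth is unknown, and 4 mice a group limit every call. The median differences of the P450 genes and Por at each stage, and the differences of Por and Cyp2e1, kept their direction under the alternatives tried. Counts and medians over all genes did not: after median-ratio scaling the medians of all genes tested went from 0.23 to -0.018 at 8 weeks and from 0.10 to -0.010 after cessation, and the interaction's split at an unadjusted limma p under 0.05 from 213 negative and 81 positive to 130 and 193. The number of P450 genes and Por past the adjusted limma threshold at 8 weeks was 0 as reported, 1 (Cyp2c55, adjusted p = 0.0485) with each library scaled to the hepatocyte reference genes, and 0 to 13 with 1 mouse left out, the 13 arising without wild-type mouse 4 alone. The median difference at 8 weeks was -0.71 as reported, -1.03 after median-ratio scaling and -0.42 after scaling to the hepatocyte reference genes; the cause was not tested. When 1 mouse was left out, the 8-week difference ran from -1.09 to -0.83 for Por and from -1.21 to -0.81 for Cyp2e1; both passed the adjusted threshold without wild-type mouse 4 alone (-0.88 and -0.90). After cessation the ranges were -0.82 to -0.70 for Por and -0.62 to -0.23 for Cyp2e1. After cessation and in the interaction 0 of the P450 genes and Por passed under every alternative run, and the median ran from -0.44 to -0.08. A replicate block on mouse number gave 0 genes past the adjusted limma threshold at each stage and in the interaction. Of the P450 genes and Por, 18 and 2 were lower at an unadjusted limma p under 0.05 at 8 weeks and after cessation (14 and 3 without it). The block changed no call among them, while the 1 gene called of all genes at 8 weeks was no longer called.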

Other observations

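P450 genes of the other families make bile acids, hydroxylate fatty acids and metabolise retinoids. They were lower in the knockout for 17 of 24 tested at 8 weeks (median -0.23) and for 15 of 22 after cessation (median -0.25). Of all genes tested, 17.4% and 29.3% were lower. Of these other P450 genes, 0 passed the adjusted limma threshold. At 8 weeks 2 of them lay wholly below the wild type and 1 wholly above, against 0.612% and 6.29% of all genes tested. After cessation the counts were 2 and 0, against 0.988% and 3.62% of all genes tested. Cyp27a1, a mitochondrial sterol hydroxylase of bile acid synthesis, was 113, 93.9, 97.0 and 88.6 FPKM in the wild type and 54.7, 61.6, 49.6 and 54.4 FPKM in the knockout at 8 weeks. After cessation it was 202, 169, 164 and 187 FPKM against 105, 132, 76.6 and 132 FPKM, so the genotypes did not overlap at either stage (limma adjusted p = 0.107 and 0.499). It does not take its electrons from POR but from ferredoxin.

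Cyp7a1, whose enzyme opens the classical route from cholesterol to bile acids, was 5.75, 10.2, 3.03 and 0.843 FPKM in the wild type at 8 weeks and 0.523, 0.598 and 0.300 FPKM in knockout mice 2 to 4, and is listed at 0 in knockout mouse 1. The genotypes did not overlap (-1.87 ± 0.49, limma adjusted p = 0.171). After cessation the knockout was the higher group, with 34.9, 14.8, 14.0 and 15.7 FPKM against 9.61, 8.89, 15.1 and 9.33 FPKM (0.76 ± 0.29, limma adjusted p = 0.548). Cyp4a10, a fatty acid hydroxylase and a target of PPAR alpha, was 505, 606, 595 and 539 FPKM in the wild type and 281, 349.01, 248.6 and 304 FPKM in the knockout after cessation, without overlap (-0.93 ± 0.16, limma adjusted p = 0.232).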
